A study of Mus musculus with 8 samples.

Results

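The cytosolic heat shock proteins were followed here as 10 genes out of the 53090 in each table, chosen by symbol and not by their values: *Hsf1*, *Hspa1a*, *Hspa1b*, *Hspa8*, *Hsp90aa1*, *Hsp90ab1*, *Hsph1*, *Dnajb1*, *Hspb1* and *Bag3*. They were read in sciatic nerves of mice at postnatal day 7 (P7), from 4 *Nae1* conditional knockout (cKO) and 4 control nerves. The *Nae1* cKO nerves came from Cre-positive Nae1 f/f mice, in which Cre deletes *Nae1* in Schwann cells but not in the other cells of the nerve. The control nerves, labelled WT, came from Cre-negative littermates with 1 or 2 floxed *Nae1* alleles, so that floxed alleles were present in both groups. *Nae1* encodes a subunit of the enzyme that activates NEDD8, the small protein that is attached to cullins and switches on cullin-RING ubiquitin ligases. Nothing in the sources says that each library is a separate mouse, and the p-values therefore measure the spread between these samples, which may in part be technical.

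These genes make up the core of the heat shock response. In resting cells the transcription factor HSF1 is held inactive in complexes with chaperones, and when unfolded proteins draw the chaperones away it is released, assembles into trimers and binds heat shock elements, repeats of the bases GAA and TTC in alternating orientation, in the promoters of chaperone genes. HSP70 proteins bind unfolded stretches of other proteins, J-domain proteins such as DNAJB1 deliver those clients, HSP110 and BAG proteins make HSP70 release its nucleotide, HSP90 proteins mature kinases and steroid receptors, and small heat shock proteins hold unfolded proteins in solution. *Hspa1a* and *Hspa1b* are the strongly inducible HSP70 genes, while *Hspa8*, *Hsp90ab1* and, at a lower level, *Hsp90aa1* are used by unstressed cells.

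Of the 10 genes, 1 was higher in *Nae1* cKO than in WT nerves (*Bag3*, 1.42-fold) and 0 were lower at an adjusted p under 0.05 in edgeR's quasi-likelihood test. No gene passed both that threshold and a 2-fold change. Over all 17090 genes tested, 26.4% passed the same threshold, 14.1% as higher and 12.3% as lower. At an unadjusted p under 0.05 the count was 3 (*Bag3*, *Hsf1* and *Hspa1b*). The share of all genes at that level is not given here and cannot be below the 26.4% that passed after adjustment. Groups that did not overlap were found for 0 members, against 28.6% of all genes tested. The median log2 fold change of the 10 genes was 0.03, beside 0.0066 for all genes tested. For 7 of the 10 genes the 95% interval of the change lay within 2-fold in either direction. The interval reached beyond 2-fold for *Hspa1a*, *Hspa1b* and *Hspb1*, the genes with the fewest reads. Shares of all genes are not given here for this count or for the 2-fold threshold.

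Levels are given as CPM, the counts of a library scaled by TMM to a common total, which compare a gene between nerves, or TPM, which is also divided by transcript length and compares genes with each other. Each nerve had between 12962798 and 13855366 expected counts in *Nae1* cKO and between 13508752 and 14766770 in WT. *Nae1* itself stood at 57.1, 57.2, 48.9 and 43.8 CPM in *Nae1* cKO nerves and at 89.8, 81.3, 77.7 and 82.7 CPM in WT nerves, with no overlap (log2 fold change −0.68, SE 0.0971, adjusted p = 0.000277). In TPM its groups overlapped, at 15.4 to 28.8 in *Nae1* cKO and 27.3 to 30.1 in WT nerves. With limma on log2(TPM + 1) *Nae1* was at −0.44 and did not pass (adjusted p = 0.266). Skeletal muscle RNA differed between nerves: the summed level of 13 muscle markers was 207, 67.0, 70.6 and 101 CPM in *Nae1* cKO nerves K2, L1, L5 and L8, and 1390, 383, 2220 and 138 CPM in WT nerves K1, L3, L4 and L9. The *Nae1* cKO nerve K2 stood apart by 7SK RNA, at 4.70% of its counts where its group otherwise had 1.94% to 2.43%, and by mitochondrial RNA, at 1.54% where its group otherwise had 3.08% to 3.13%. Macrophage markers were higher in *Nae1* cKO nerves (12 of 15 genes called higher, 456 to 569 CPM in sum in *Nae1* cKO and 258 to 279 CPM in WT), and those of the Schwann cell lineage summed to 2550 to 2900 CPM in *Nae1* cKO and 3030 to 3280 CPM in WT nerves. In whole nerves, fewer cells of a type and less RNA per cell cannot be told apart. Of the called genes, 53.5% were higher, and this share was 75.5% with libraries scaled to their totals, 76.4% with FPKM and 75.4% with TPM, where the median of all genes moved to 0.16, to between 0.13 and 0.16, and to 0.10 on the log2 scale.

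The promoters are shown because HSF1 acts through them. RefSeq promoter windows (GRCm38.p6, from 250 bases before to 50 after the start, 32851 windows in all) were matched for 6 of the 10 genes: *Hspa1a*, *Hspa1b*, *Hsph1*, *Dnajb1*, *Hspb1* and *Bag3*. A pair of adjoining units, TTCNNGAA or GAANNTTC, each of which reads the same on both strands, was found in 5 of these 6 genes and in 15.1% of all windows. The exception was *Dnajb1*. Only exact matches within the windows were sought, so a gene without a match may still hold an imperfect or more distant element. The count is of genes with a match in any of their windows, with *Hspa1a* and *Hspa1b* counted apart, while the share is of single windows. In the following 30-base stretches, written from 5′ to 3′ on the strand of the gene, capitals mark the matching pair.
Hspa1a, chr17:34972242-34972271, minus strand: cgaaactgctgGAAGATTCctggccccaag
Hspa1b, chr17:34959324-34959353, minus strand: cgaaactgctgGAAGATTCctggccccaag
Hsph1, chr5:149636351-149636380, minus strand: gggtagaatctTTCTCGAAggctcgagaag
Hspb1, chr5:135887791-135887820, plus strand: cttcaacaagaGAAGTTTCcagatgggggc
Hspb1, chr5:135887811-135887840, plus strand: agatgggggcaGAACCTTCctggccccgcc

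A run of 3 adjoining units, TTCNNGAA followed by NNTTC or GAANNTTC followed by NNGAA (each the other on the opposite strand, and each holding both shorter patterns), was found in 0.603% of all windows and, among the 6 genes, in *Hsph1* alone. It lay just after the start of the gene and is shown for the overlap of its 2 pairs, the first in capitals in the upper line and the second in the lower. The only match in the *Bag3* window, GAAGTTTC, also lay after the start, beginning at base 43 from the RefSeq start of the window. RefSeq starts can differ from the GENCODE gene positions given below, as they do for *Bag3*.
Hsph1, chr5:149636282-149636311, minus strand: aatgctgcagaTTCTGGAAagttctcctca
Hsph1, chr5:149636277-149636306, minus strand: tgcagattctgGAAAGTTCtcctcagtagg
Bag3, chr7:128523614-128523632, plus strand: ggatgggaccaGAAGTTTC

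*Hspa1a* and *Hspa1b* share nearly all of this sequence: 247 of the 250 bases before their starts were the same (98.8%), and the 120 bases next to the start differed at 1 base, written as a capital. The stretches are shown because the transcripts also share much of their sequence, though less than this, which limits what reads can tell about each gene.
Hspa1a, chr17:34972157-34972276, minus strand: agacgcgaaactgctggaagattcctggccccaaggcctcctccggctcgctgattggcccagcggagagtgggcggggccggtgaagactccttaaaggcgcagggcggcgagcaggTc
Hspa1b, chr17:34959239-34959358, minus strand: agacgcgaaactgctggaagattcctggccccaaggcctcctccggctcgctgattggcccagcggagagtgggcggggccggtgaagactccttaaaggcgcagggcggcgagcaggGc

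The regulator *Hsf1* (ENSMUSG00000022556.9, GRCm38 chromosome 15, 76477422 to 76501913, plus strand) was a low transcript, at 4.10, 4.74, 3.67 and 5.23 CPM in *Nae1* cKO nerves and 5.99, 5.65, 7.82 and 4.85 CPM in WT nerves. Only WT nerve L9 fell within the range of the *Nae1* cKO nerves, and WT nerve L4 was the highest of all. The mean was 4.44 ± 0.686 CPM in *Nae1* cKO and 6.08 ± 1.26 CPM in WT nerves (SD, n = 4 each). Its change was −0.45 on the log2 scale (SE 0.187, 95% interval −0.86 to −0.05), and the gene did not pass the test (adjusted p = 0.0950), nor under any of 21 other settings, where its log2 fold change lay between −0.55 and −0.20.

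The inducible HSP70 genes had the lowest TPM of the 10. *Hspa1a* (ENSMUSG00000091971.3, chromosome 17, 34969190 to 34972156, minus strand) had 39, 32, 11 and 16 counts in *Nae1* cKO nerves K2, L1, L5 and L8, and 32, 28, 24 and 31 counts in WT nerves K1, L3, L4 and L9. *Hspa1b* (ENSMUSG00000090877.3, chromosome 17, 34956436 to 34959238, minus strand) had 36, 19, 31 and 51 counts in the same *Nae1* cKO nerves and 68, 48, 46 and 39 counts in the WT nerves. Thus *Hspa1a* was spread more widely over *Nae1* cKO than over WT nerves, on both sides of the WT values, and *Hspa1b* was highest in WT nerve K1 and lowest in *Nae1* cKO nerve L1. On the log2 scale the change was −0.29 for *Hspa1a* (95% interval −1.08 to 0.50, adjusted p = 0.604) and −0.62 for *Hspa1b* (SE 0.28, 95% interval −1.23 to −0.01, adjusted p = 0.130). *Hspa1b* passed only without *Nae1* cKO nerve L8, where it was at −0.87 (adjusted p = 0.0499).

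Of all distinct 50-base runs in the annotated transcripts, 60.3% of those of *Hspa1a* and 62.3% of those of *Hspa1b* also occurred in another gene, nearly always in the other gene of the pair. Expected counts divide such reads between the genes by estimation, and the *Hspa1a* count was 31.4% to 168% of the *Hspa1b* count in *Nae1* cKO nerves and 47.1% to 79.5% in WT nerves. The sum of both genes does not depend on that division. It stood at 5.60, 3.55, 2.86 and 4.67 CPM in *Nae1* cKO nerves and at 7.30, 5.50, 5.02 and 5.56 CPM in WT nerves. All *Nae1* cKO nerves but K2 lay below every WT nerve. The sum averaged 4.17 ± 1.21 CPM in *Nae1* cKO and 5.85 ± 1.0 CPM in WT nerves (SD, n = 4 each), with a log2 fold change of −0.49 (SE 0.215, 95% interval −0.96 to −0.02). It did not pass the test (adjusted p = 0.118). Without *Nae1* cKO nerve K2 it was at −0.66 and passed (adjusted p = 0.0281), as it did at −0.49 with the letter of the sample names (K or L) as a term (adjusted p = 0.0462).

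**Figure D1:**
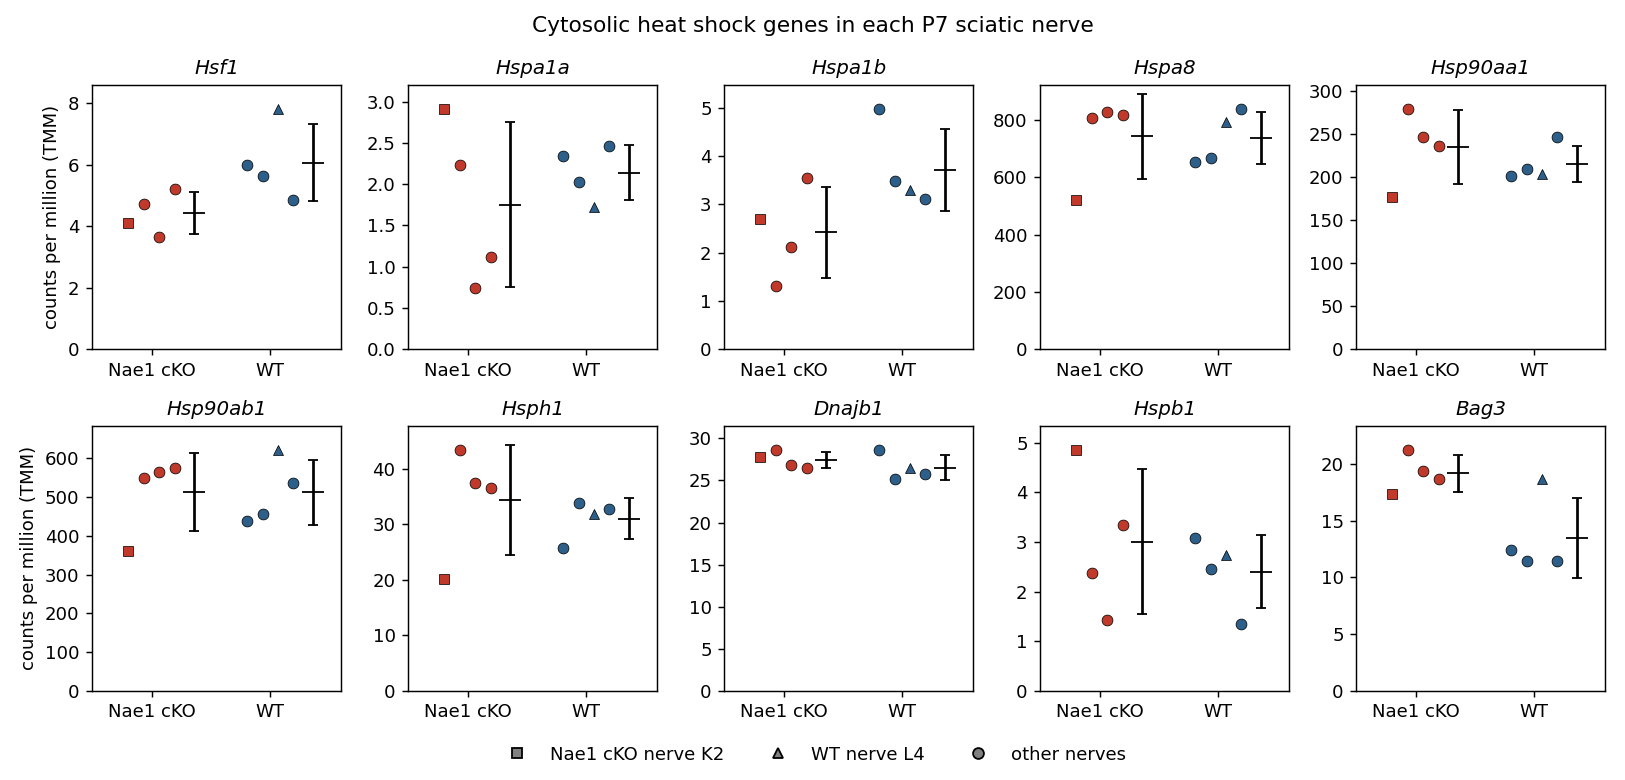
CPM after TMM scaling (vertical axes, linear and from 0, a separate scale for each gene) of the 10 genes in each nerve, *Nae1* cKO in red on the left and WT in blue on the right, with the mean and SD of 4 nerves beside the points. The squares mark *Nae1* cKO nerve K2, the lowest nerve for *Hspa8* (519 CPM), *Hsp90ab1* (362 CPM), *Hsp90aa1* (177 CPM) and *Hsph1* (20.1 CPM), and the triangles mark WT nerve L4, which alone among WT nerves reached the *Bag3* level of the *Nae1* cKO nerves.

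*Hspa8* (ENSMUSG00000015656.17, chromosome 9, 40800984 to 40810087, plus strand), the HSP70 of unstressed cells, was the most abundant of the 10 transcripts. It stood at 519, 806, 827 and 815 CPM in *Nae1* cKO nerves and at 651, 666, 790 and 837 CPM in WT nerves. Apart from the low nerve K2, the *Nae1* cKO nerves were within the range of the WT nerves. The mean was 742 ± 149 CPM in *Nae1* cKO and 736 ± 91.6 CPM in WT nerves (SD, n = 4 each), and the 95% interval of the change ran from 0.807-fold to 1.26-fold (adjusted p = 0.965). Without nerve K2 the log2 fold change was 0.14, which did not pass the test.

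The gene of the HSP110 protein that exchanges the nucleotide of HSP70, *Hsph1* (ENSMUSG00000029657.15, chromosome 5, 149614287 to 149636376, minus strand), stood at 20.1, 43.3, 37.4 and 36.5 CPM in *Nae1* cKO nerves and at 25.7, 33.8, 31.8 and 32.7 CPM in WT nerves. Its 3 other *Nae1* cKO nerves lay above every WT nerve, while K2 lay below all of them. Its log2 fold change was 0.15 (SE 0.20, 95% interval −0.30 to 0.59, adjusted p = 0.642). It was 0.33 without nerve K2 and then passed (adjusted p = 0.0331).

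The J-domain gene *Dnajb1* (ENSMUSG00000005483.10, chromosome 8, 83608193 to 83612653, plus strand) varied least: 27.8, 28.6, 26.9 and 26.5 CPM in *Nae1* cKO nerves and 28.6, 25.2, 26.5 and 25.8 CPM in WT nerves. The groups covered nearly the same range. Its mean was 27.4 ± 0.944 CPM in *Nae1* cKO and 26.5 ± 1.5 CPM in WT nerves (SD, n = 4 each), and its interval, 0.91-fold to 1.17-fold, was the narrowest of the 10 (log2 fold change 0.05, SE 0.0844, adjusted p = 0.721).

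*Bag3* (ENSMUSG00000030847.8, chromosome 7, 128523616 to 128546981, plus strand) encodes a BAG-domain co-chaperone of HSP70 that also binds small heat shock proteins and sends clients to autophagy, and it is abundant in muscle. It stood at 17.3, 21.2, 19.4 and 18.7 CPM in *Nae1* cKO nerves K2, L1, L5 and L8, and at 12.4, 11.4, 18.7 and 11.4 CPM in WT nerves K1, L3, L4 and L9. WT nerve L4, the nerve with the most muscle RNA, lay among the *Nae1* cKO nerves, and the other 3 WT nerves lay below all of them. The mean was 19.2 ± 1.63 CPM in *Nae1* cKO and 13.5 ± 3.51 CPM in WT nerves (SD, n = 4 each). The log2 fold change was 0.51 (SE 0.159, 95% interval 0.16 to 0.85, adjusted p = 0.0341), a 1.42-fold higher level.

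The call on *Bag3* was close to its threshold. It was lost without *Nae1* cKO nerve L1 (adjusted p = 0.0919), L5 (0.0754) or L8 (0.0653) and without WT nerve K1 (0.0924), L3 (0.0910) or L9 (0.0938), with log2 fold changes between 0.43 and 0.52. It held without *Nae1* cKO nerve K2 (0.54, adjusted p = 0.0247), without WT nerve L4 (0.70, adjusted p = 0.00151) and without both muscle-rich WT nerves K1 and L4 (0.74, adjusted p = 0.00705). Since L4 was also the WT nerve highest in *Bag3*, leaving it out raises the fold by construction, and the part of muscle RNA in the difference was not tested. On log2(TPM + 1) it was 0.54 and did not pass (adjusted p = 0.159), nor did it among the nerves of letter L alone (0.51, adjusted p = 0.0682).

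**Figure D2:**
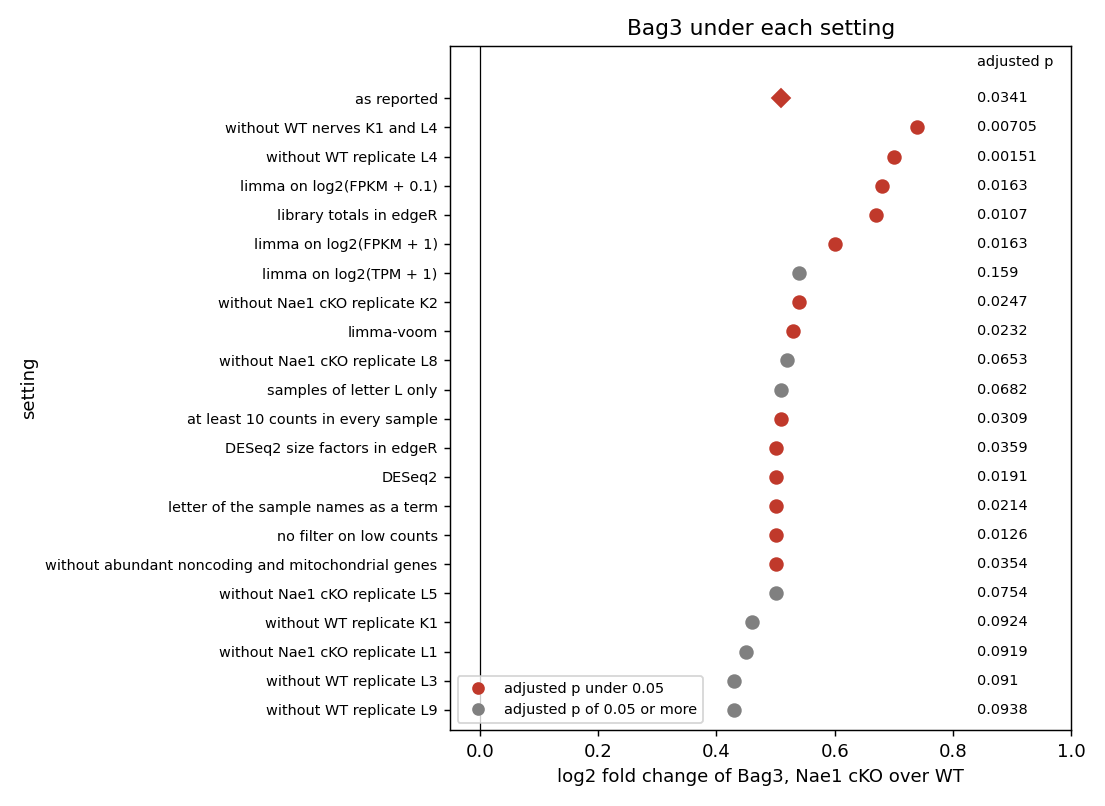
Log2 fold change of *Bag3*, *Nae1* cKO over WT (horizontal axis), under each setting (vertical axis), as the reported fit (diamond) and 21 others (circles), in red where the adjusted p, printed at the right, was under 0.05. All values lie above 0, between 0.43 and 0.74, and 8 of the 21 circles are grey.

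The HSP90 genes differed less than their spread. *Hsp90aa1* (ENSMUSG00000021270.13, chromosome 12, 110690605 to 110702728, minus strand), the more inducible of the pair, stood at 177, 279, 247 and 236 CPM in *Nae1* cKO nerves and at 201, 209, 204 and 246 CPM in WT nerves. Its log2 fold change was 0.13 (95% interval −0.15 to 0.40, adjusted p = 0.503), and 0.23 without *Nae1* cKO nerve K2 (adjusted p = 0.0564). *Hsp90ab1* (ENSMUSG00000023944.14, chromosome 17, 45567775 to 45573271, minus strand), the constitutive one, stood at 362, 548, 566 and 574 CPM in *Nae1* cKO nerves and at 438, 456, 621 and 537 CPM in WT nerves. For both genes K2 was the lowest of all 8 nerves, and the other *Nae1* cKO nerves overlapped the WT nerves. *Hsp90ab1* averaged 513 ± 101 CPM in *Nae1* cKO and 513 ± 83.7 CPM in WT nerves (SD, n = 4 each), and the interval of its change ran from 0.789-fold to 1.27-fold (adjusted p = 0.998). The TPM of *Hsp90ab1* was 2.77 ± 0.40 times that of *Hsp90aa1* in *Nae1* cKO and 3.17 ± 0.849 times in WT nerves (SD, n = 4 each; two-sided exact permutation test, p = 0.486, 0.514 after Benjamini-Hochberg adjustment over 5 such quantities).

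The small heat shock gene *Hspb1* (ENSMUSG00000004951.10, chromosome 5, 135887919 to 135889563, plus strand), which encodes HSP25 of mice, had only 65, 34, 21 and 48 counts in *Nae1* cKO nerves and 42, 34, 38 and 17 counts in WT nerves. In CPM that was 4.85, 2.37, 1.43 and 3.35 in *Nae1* cKO and 3.07, 2.46, 2.73 and 1.35 in WT nerves, with K2 the highest of all. The log2 fold change was 0.31 (SE 0.355, 95% interval −0.47 to 1.08, adjusted p = 0.574), and it was −0.028 without K2. Its interval reached from 0.723-fold to 2.12-fold.

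**Figure D3:**
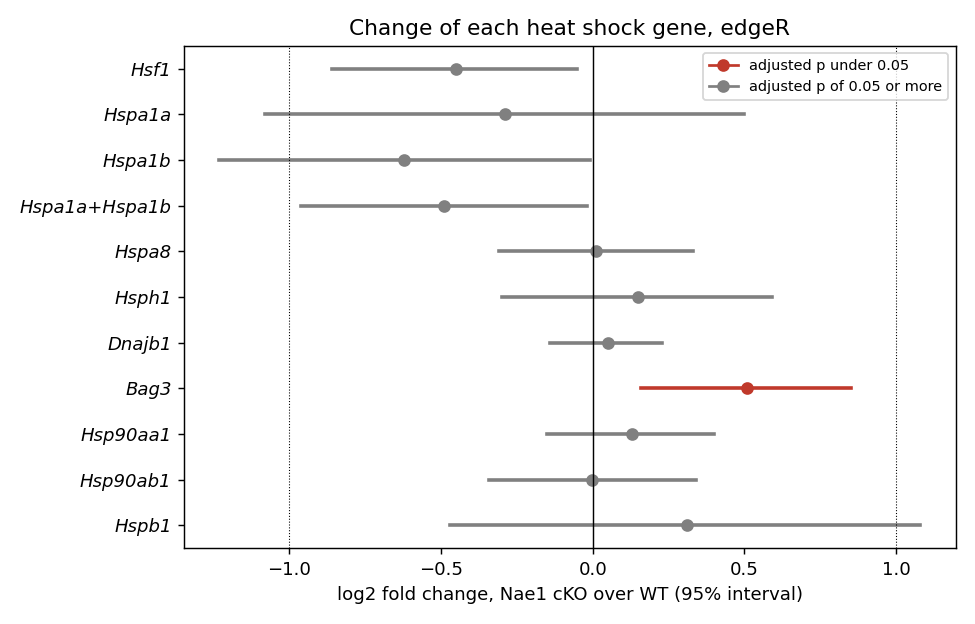
Log2 fold change of each gene and of the *Hspa1a* and *Hspa1b* sum, *Nae1* cKO over WT (horizontal axis), with its 95% interval from edgeR as a line and dotted lines at 2-fold. Only *Bag3* (0.51, interval 0.16 to 0.85) is red for an adjusted p under 0.05, and the intervals of *Hspa1a*, *Hspa1b* and *Hspb1* are the widest.

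By length-scaled level, WT nerves ranked *Hspa8* first (280 ± 57.9 TPM), followed by *Hsp90ab1* (168 ± 41.5), *Hsp90aa1* (53.6 ± 8.38), *Hsph1* (8.03 ± 0.84), *Dnajb1* (6.16 ± 0.465), *Bag3* (3.74 ± 1.22), *Hsf1* (2.16 ± 0.556), *Hspb1* (2.08 ± 0.567), *Hspa1b* (0.908 ± 0.111) and *Hspa1a* (0.507 ± 0.0826 TPM; SD, n = 4 each). Within that order the range of each gene over the WT nerves lay above that of the next. The exceptions were *Bag3* against *Hsf1* and *Hsf1* against *Hspb1*, whose ranges overlapped. *Bag3* was still above *Hsf1* within each WT nerve, while *Hsf1* and *Hspb1* changed order between nerves. In *Nae1* cKO nerves *Hspa8* was also first (318 ± 115 TPM), with *Hsp90ab1* (190 ± 66.9) and *Hsp90aa1* (71.0 ± 32.0) next, and the same genes last, *Hspa1b* at 0.652 ± 0.266 and *Hspa1a* at 0.443 ± 0.238 TPM (SD, n = 4 each). *Hspb1* (2.73 ± 0.884 TPM) there stood above *Hsf1* (1.77 ± 0.596 TPM), again with overlap. The ranges of most neighbours overlapped over the *Nae1* cKO nerves, where the TPM of K2 were low. For example, *Hspa8* stood at 148 TPM in K2 and at 408, 353 and 361 TPM in L1, L5 and L8. Within each *Nae1* cKO nerve, *Hspa8* was above *Hsp90ab1*, *Hsp90ab1* above *Hsp90aa1*, and *Dnajb1* above *Bag3*. The order of *Hsph1* and *Dnajb1*, of *Hspb1* and *Hsf1*, and of *Hspa1b* and *Hspa1a* changed between these nerves.

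The chaperones of unstressed cells thus made up almost all of this RNA in both groups. *Hspa8*, *Hsp90aa1* and *Hsp90ab1* together held 94.1% to 95.6% of the TPM of the 10 genes in *Nae1* cKO and 94.9% to 96.2% in WT nerves (two-sided exact permutation test, p = 0.429, adjusted 0.514). *Hspa8* alone held 50.9% to 53.6% in *Nae1* cKO and 52.0% to 54.9% in WT nerves (two-sided exact permutation test, p = 0.314, adjusted 0.514). Its TPM was 296 ± 118 times that of *Hspa1a* and *Hspa1b* combined in *Nae1* cKO nerves and 199 ± 45.6 times in WT nerves (SD, n = 4 each; two-sided exact permutation test, p = 0.171, adjusted 0.514).

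The genes also varied among the nerves of a group. Across the 8 nerves, each expressed as its deviation from its own group mean in log2 CPM, *Hspa8* and *Hsp90ab1* were correlated at r = 0.95, *Hsp90aa1* and *Hsph1* at 0.90, *Hspa8* and *Hsph1* at 0.88 and *Hspa8* and *Hsp90aa1* at 0.87 (Pearson, n = 8, as a description, since the points share libraries and scaling). In *Nae1* cKO nerve K2 all 4 were low, by −0.49 for *Hspa8*, −0.48 for *Hsp90ab1*, −0.39 for *Hsp90aa1* and −0.71 for *Hsph1*. *Dnajb1* did not share this, at 0.02 in K2 and within 0.11 of the group mean in every nerve. *Hspa1a* and *Hspb1* deviated the other way in K2, by 0.85 and 0.79. *Bag3* and *Hsf1* (r = 0.74) were both highest in WT nerve L4, at 0.50 and 0.38 above their group means. The part of the 7SK share of K2 and of the muscle RNA of L4 in these deviations was not tested.

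**Figure D4:**
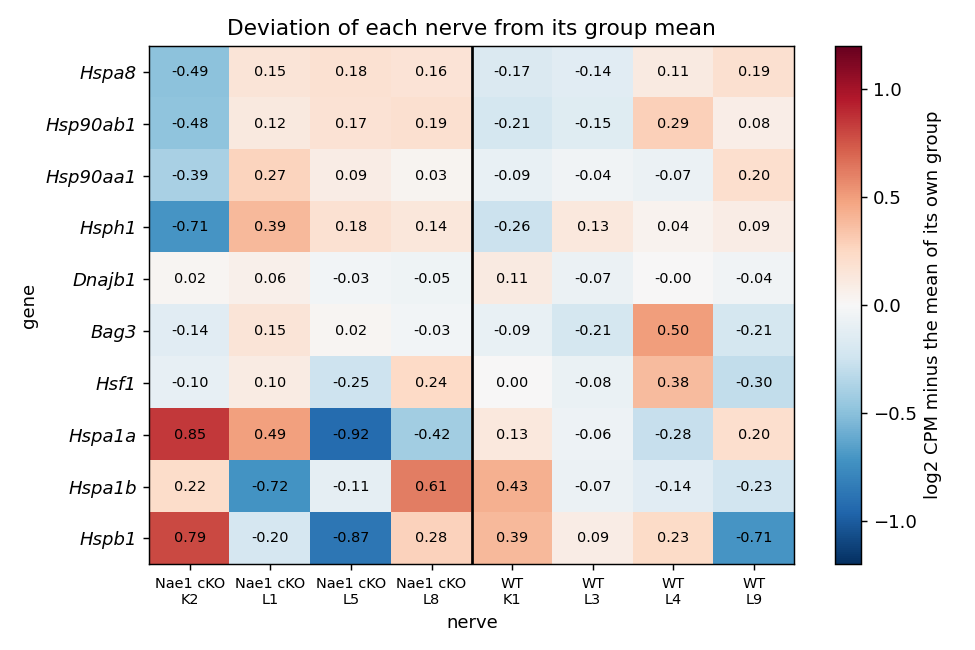
Log2 CPM of each gene (rows) in each nerve (columns, *Nae1* cKO left of the line and WT right of it) minus the mean of its own group, in colour and in figures. *Hspa8*, *Hsp90ab1*, *Hsp90aa1* and *Hsph1* are 0.39 to 0.71 below the group mean in *Nae1* cKO nerve K2, and *Bag3* and *Hsf1* are 0.50 and 0.38 above it in WT nerve L4.

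The genes whose log2 CPM followed those of the inducible members most closely over the 8 nerves are named from 12590 genes with mean counts of 50 or more, a limit that *Hspa1a*, *Hspa1b* and *Hspb1* themselves do not reach. For *Hspa1b* they were *Ctbp1*, *Sema3f* and *Polrmt* (r = 0.971, 0.959 and 0.946), and for *Dnajb1* they were *Gm38034*, *Gm36527* and *Snhg12* (r = 0.925, 0.888 and 0.886). For *Hspa1a* they were *5430405H02Rik*, *CAAA01180111.1* and *2010315B03Rik* (r = 0.958, 0.953 and 0.953). Among the 50 nearest genes, 0 were members for any of these genes. Group means were not removed here, so differences between the groups enter these r values. They are also the highest of 12590 values over only 8 nerves, where high r can arise by selection, and they were not tested.

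Shared sequence limited other members less than the *Hspa1* pair. Of the 50-base runs, 38.6% of those of *Hspa8*, 47.5% of those of *Hsp90aa1* and 48.8% of those of *Hspb1* also occurred in other genes, mostly in *Gm15459*, *Gm12346* and *Hsp25-ps1*, against 3.44% for *Hsp90ab1*, 0.38% for *Dnajb1* and 0% for *Hsf1*, *Hsph1* and *Bag3*. The reads given to those copies were few, at 0.0999% to 0.608% of the *Hspa8* count for *Gm15459*, 0.855% to 1.5% of the *Hsp90aa1* count for *Gm12346* and 0 in every nerve for *Hsp25-ps1*.

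Around these 10 genes, other genes of the cytosolic chaperone system were also called, in counts to be read beside the 26.4% of all genes that were called. These counts changed with the scaling of the libraries, and on log2(TPM + 1) 0 genes of the J-domain, HSP70, BAG, small heat shock and TRiC lists passed. Among 11 other cytosolic J-domain proteins, 4 fell and 1 rose (median log2 fold change −0.18, beside 0.0066 for all genes), whereas with library totals and with FPKM 2 fell and 2 rose. *Dnaja4*, a partner of HSP70, stood at 21.2, 17.9, 20.7 and 18.1 CPM in *Nae1* cKO nerves and at 39.3, 30.0, 35.3 and 38.9 CPM in WT nerves. *Dnajb2*, whose human gene is mutated in a distal motor neuropathy, stood at 20.0, 24.7, 26.0 and 24.8 CPM in *Nae1* cKO and at 43.8, 35.0, 41.1 and 40.9 CPM in WT nerves. Neither gene overlapped between the groups. The log2 fold change was −0.88 for *Dnaja4* (SE 0.11, adjusted p = 0.000102) and −0.75 for *Dnajb2* (SE 0.106, adjusted p = 0.000253), the 2 lowest adjusted p among the listed chaperone genes. *Dnaja1*, itself induced by HSF1 (−0.46, adjusted p = 0.00458), and *Dnajc7* (−0.26, adjusted p = 0.0269) also fell, while *Dnaja2* rose (0.27, adjusted p = 0.0191). The rise of *Dnaja2* was lost without *Nae1* cKO nerve L5 or L8 or WT nerve K1 or L4, and 3 of the J-domain genes were lower, none higher, without WT nerves K1 and L4.

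Of 7 other cytosolic HSP70 and HSP110 genes, 2 fell and 0 rose (median −0.13), the same counts as with library totals, while with FPKM 1 fell and 0 rose. *Hspa4l*, an HSP110 gene, stood at 81.1, 87.9, 91.7 and 86.7 CPM in *Nae1* cKO nerves and at 117, 107, 119 and 141 CPM in WT nerves, with no overlap (log2 fold change −0.48, SE 0.0892, adjusted p = 0.0018). *Hspa12a*, a distant relative of HSP70, averaged 558 ± 65.3 CPM in *Nae1* cKO and 758 ± 30.2 CPM in WT nerves (SD, n = 4 each; log2 fold change −0.44, adjusted p = 0.00303). Of 5 other BAG genes, *Bag5* (−0.47, adjusted p = 0.00219) and *Bag2* (−0.77, adjusted p = 0.0364) fell and 0 rose (median −0.20), whereas with library totals and with FPKM 1 fell and 1 rose. *Bag2* did not pass without *Nae1* cKO nerve L5 or without WT nerve K1, L3, L4 or L9. Their calls, *Bag2* apart, held without each nerve in turn.

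Among 4 other small heat shock genes with enough counts to test, of 7 listed, *Cryab* and *Hspb2*, neighbouring genes that muscle expresses strongly, fell and 0 rose (median −0.50). With FPKM 1 fell and 0 rose. *Cryab*, which encodes αB-crystallin, stood at 36.6, 30.6, 42.3 and 45.6 CPM in *Nae1* cKO nerves and at 63.8, 51.9, 102 and 68.2 CPM in WT nerves. *Hspb2* stood at 5.15, 4.88, 4.89 and 6.97 CPM in *Nae1* cKO and at 10.1, 5.72, 12.6 and 11.5 CPM in WT nerves. Both were highest in WT nerve L4, the one with 2220 CPM of muscle markers. Next for both came WT nerve L9, which had the least muscle RNA of the WT nerves (138 CPM). The part of muscle RNA in the fall of either gene was not tested. *Cryab* had a log2 fold change of −0.88 (SE 0.202, adjusted p = 0.00959) and of −0.64 without WT nerves K1 and L4 (adjusted p = 0.0352). That of *Hspb2* was −0.86 (SE 0.229, adjusted p = 0.0151) and −0.66 without those nerves, where it did not pass (adjusted p = 0.171), nor did it without L4 alone (−0.73, adjusted p = 0.0518).

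Among the partners that act on HSF1, *Hsbp1*, whose product binds and dampens active HSF1, stood at 61.9, 56.5, 63.4 and 66.6 CPM in *Nae1* cKO nerves and at 80.1, 73.9, 81.3 and 89.4 CPM in WT nerves. It fell without overlap (log2 fold change −0.39, SE 0.0831, adjusted p = 0.00452), but did not pass with library totals (−0.23, adjusted p = 0.0612) or with FPKM. *Hsf2*, a second heat shock factor, rose by 0.29 (SE 0.0862, adjusted p = 0.0275), a call lost without *Nae1* cKO nerve L1 or L5 or WT nerve K1 or L9. *Fbxw7*, the substrate receptor of a cullin-RING ligase that targets HSF1 in human cells, was at 0.17 (adjusted p = 0.231) and *Vcp* at 0.05, and *Hsf4* had too few counts to test.

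Of 18 co-chaperones of HSP90 and HSP70, 2 rose and 1 fell (median 0.06), and 4 rose and 0 fell with library totals and with FPKM. The folliculin-interacting proteins that slow the ATPase of HSP90 were the ones that rose, *Fnip2* (84.1 ± 5.81 CPM in *Nae1* cKO and 60.9 ± 2.93 CPM in WT nerves, SD, n = 4 each, log2 fold change 0.47, adjusted p = 0.000786) and *Fnip1* (0.32, adjusted p = 0.0112). *Sgta* fell (−0.26, adjusted p = 0.0457), but it passed only without WT nerve L3 among the 8 fits that each left out a nerve. *Fkbp5*, an HSP90 co-chaperone of steroid receptors, did not pass (log2 fold change 2.04, SE 0.67, adjusted p = 0.0684), although its groups did not overlap: it stood at 93.1 CPM in *Nae1* cKO nerve K2, at 21.2, 17.8 and 17.9 CPM in the other *Nae1* cKO nerves and at 11, 10.4, 6.89 and 8.02 CPM in WT nerves. Without K2 it was at 1.05 (SE 0.157) and passed (adjusted p = 0.000219), which brought the list to 4 higher and 0 lower.

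The cytosolic chaperonin TRiC, which folds actin and tubulin, had 3 of 8 subunit genes higher and 0 lower, with small changes: *Cct7* 0.26, *Cct8* 0.25 and *Cct4* 0.24 (median of the list 0.18). With library totals 7 were higher and with FPKM 4. None of the 8 passed without *Nae1* cKO nerve L1, L5 or L8, or without WT nerve K1 or L4, and 4 passed without K2. For comparison, 0 of 13 chaperone genes of the endoplasmic reticulum were called in either direction (median −0.05, *Hspa5* at 0.04). At an unadjusted p under 0.05 there was 1 of them (*Canx*, −0.18, adjusted p = 0.114), a level for which the share of all genes is not given. Of 9 mitochondrial chaperone genes, *Hspa9* rose (0.28, adjusted p = 0.0151) and 0 fell (median −0.03), and 2 rose with library totals and with FPKM.

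**Figure D5:**
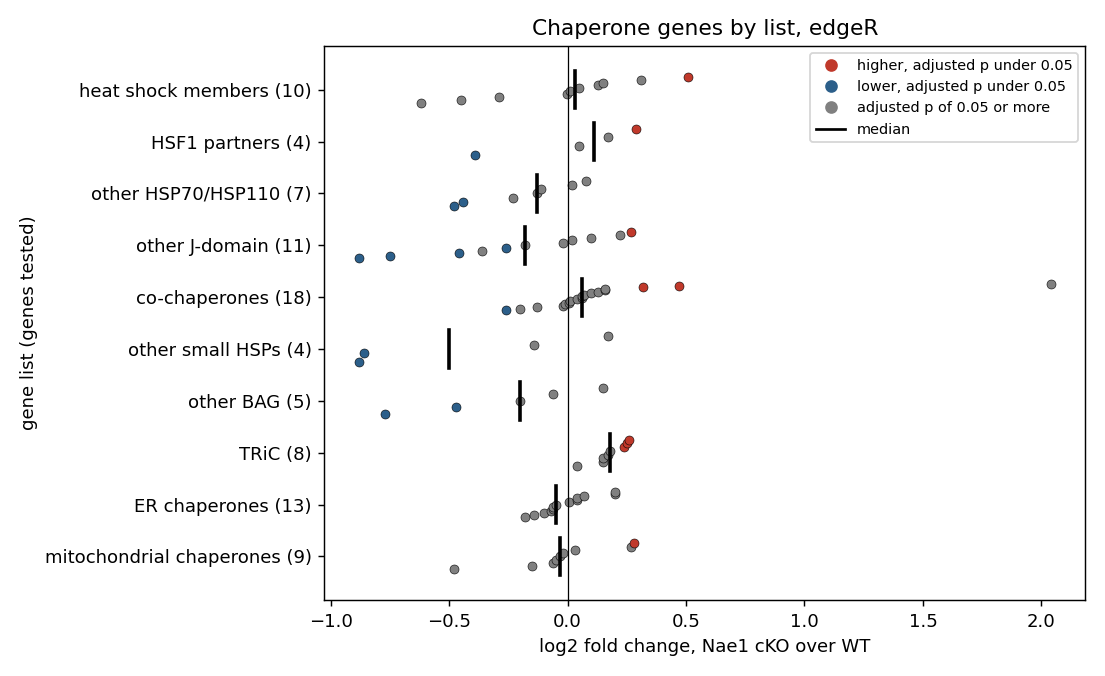
Log2 fold change of each tested gene, *Nae1* cKO over WT (horizontal axis), by list (vertical axis, number of genes tested in brackets), with TMM scaling, in red (higher) or blue (lower) where the adjusted p was under 0.05 and grey otherwise, with the list's median as a bar. The 10 heat shock genes hold 1 red point, the other J-domain genes 4 blue and 1 red, TRiC 3 red and the chaperones of the endoplasmic reticulum none, and the grey point at 2.04 is *Fkbp5*.

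Of 17 further genes that HSF1 induces on heat shock in mouse or human cells, 0 were higher and 3 were lower (*Hspa4l*, *Dnaja1* and *Cryab*, which are also in the lists above), with a median of 0.01. This balance depended on the scaling: 4 were higher and 2 lower with library totals, and 3 were higher and 1 lower with FPKM. Immediate early genes, which can rise while tissue is handled, summed to 124 to 134 CPM in *Nae1* cKO nerves and to 121 to 123 CPM in WT nerves. Of 11 such genes, *Egr1* (0.99, adjusted p = 0.00762) and *Fos* (0.52, adjusted p = 0.0291) were higher and *Atf3* (−0.56, adjusted p = 0.0108) was lower. The median log2 fold change of the 11 genes was 0.36, beside 0.0066 for all genes. With library totals 4 of the 11 were higher and 0 lower, and with FPKM 2 were higher and 0 lower. *Fos* did not pass without *Nae1* cKO nerve L1, L5 or L8 or WT nerve K1 or L4. The part of handling in the levels of the heat shock genes was not tested.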

How the data were processed

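Total RNA of P7 sciatic nerves was sequenced after depletion of ribosomal RNA, from 4 *Nae1* cKO and 4 WT nerves. For each nerve the authors deposited a gene table of 53090 genes with RSEM's expected counts (estimated fragments per gene, not normalized), TPM (scaled by the authors for transcript length and to a fixed total) and FPKM (scaled by the authors for transcript length and library size). By the submitters' processing notes, reads were checked with FastQC 0.11.5, and STAR and RSEM are named with the build GRCm38. The paper's methods give TopHat, Cuffdiff and mm10 instead, which were not repeated here. How strand was set, and from which annotation release genes were counted, is not stated there. Coordinates came from GENCODE vM21, in which 52489 gene identifiers were found. Promoters were read from RefSeq (GRCm38.p6).

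Expected counts were rounded, filtered by filterByExpr (17090 genes, which included all 10 members), scaled by TMM and compared with edgeR 4.0.16 (quasi-likelihood test, robust, no covariate, all 8 libraries) in R 4.3.3, with Benjamini-Hochberg adjustment over all genes tested. A call needed an adjusted p under 0.05. Intervals are 95% intervals of the fitted change. Co-variation used log2 CPM with a prior count of 2. Ratios of levels were tested by exact permutation over nerves (two-sided), where 4 against 4 cannot go below p = 0.0286. The common biological coefficient of variation was 0.158. Nerves of a group differed by more than sampling noise (chi-square per gene of 3.8 to 50.8 within *Nae1* cKO and 11.2 to 22.9 within WT). Each was counted as 1 sample, although such a spread cannot show that the libraries came from separate mice. The code was tested on simulated data. Alternatives were DESeq2 1.42.0, limma-voom and limma 3.58.1 on log2(TPM + 1), log2(FPKM + 1) and log2(FPKM + 0.1), DESeq2 size factors, library totals, removal of 49 abundant noncoding and mitochondrial genes, no filter on low counts, at least 10 counts in every sample, the first letter of each nerve's name (K or L) as a term, the nerves of letter L alone, removal of WT nerves K1 and L4, and removal of each nerve.

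The 10 genes, the lists and the tests were chosen with earlier results of these data known. All 10 members and *Nae1* were named, with up to 4 called genes of each other list by adjusted p and, for *Hspa1a*, *Hspa1b* and *Dnajb1*, the 3 most correlated genes. *Dnajc7*, *Fkbp5*, *Fbxw7*, *Vcp*, *Hsf4*, *Hspa5* and *Canx* were named after their values were seen. Markers of fibroblasts, endothelium, mural cells, erythroid cells and adipocytes had 4, 0, 1, 0 and 0 genes called higher and 0, 3, 1, 0 and 0 called lower.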

Additional observations from a re-analysis of the deposited data

Results flagged for a closer look

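In 8 of 66 groups of 4 nerves looked at, 1 nerve lay far from the other 3 by the gap to its nearest neighbour over the range of the group (Dixon's test at the 95% level). Chance gives this in about 1 of 20 independent groups. These groups were the same nerves read for different genes, some of them named because they passed the test. The count therefore cannot be set against that rate. *Nae1* cKO nerve K2 was the lowest of its group for *Hspa8* (519 CPM, with 806 to 827 in the others), for *Hsp90ab1* (362 CPM, with 548 to 574) and, by a small distance, for *Dnaja2* (85.7 CPM, with 89.4 to 90.0), and the highest for *Hspa9* (159 CPM, with 139 to 141). *Nae1* cKO nerve L8 was the highest for *Hspb2* (6.97 CPM, with 4.88 to 5.15). WT nerve L4 was the highest of its group for *Bag3* (18.7 CPM, with 11.4 to 12.4), and WT nerve L9 for *Hsp90aa1* (246 CPM, with 201 to 209) and *Fnip1* (67.7 CPM, with 61.5 to 61.9).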

How the results depend on the processing

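Of the 10 heat shock genes, 4 kept their direction and their side of the threshold under all 21 alternatives (*Hsf1*, *Hspa1a*, *Hsp90aa1* and *Dnajb1*). The number called higher was 0 with log2(TPM + 1) and with the nerves of letter L alone, and 0 to 2 when each nerve was left out. The number called lower was 0 to 1 when each nerve was left out. All genes called numbered 4510, but 1721 with log2(TPM + 1) and 2402 without WT nerves K1 and L4, where fewer samples were compared. The sum of *Hspa1a* and *Hspa1b* passed at −0.49 with the letter as a term, and ranged over −0.66 to −0.34 when each nerve was left out. Values near 0 changed sign without passing the test: *Hsp90ab1* was at 0.0059 with at least 10 counts in every sample, 0.17 with library totals, 0.15 with both FPKM settings, 0.12 with log2(TPM + 1), 0.059 with letter L, 0.041 without K1 and L4, and −0.072 to 0.13 when each nerve was left out. *Hspa8* was at −0.01 with the letter as a term, −0.0056 with limma-voom, −0.024 without K1 and L4 and −0.046 to 0.14 when each nerve was left out, and *Hspb1* ranged over −0.028 to 0.54. The cause of these changes was not tested. No paired analysis was possible because the names of *Nae1* cKO and WT nerves share no numbers that the labels tie together. Of 22 other named genes, 0 kept their call under every alternative. *Hspa1a*, *Hspa1b* and *Hspb1* had 11 to 68 counts per nerve, and their 95% intervals reached past 2-fold.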
